A study of Mus musculus with 4 samples.

Results

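Narrow H3K36me3 peaks at the starts of protein-coding genes were taken from 1 refined peak list per mouse strain, as the intervals on the 19 autosomes that touched a window of 1000 bp either side of the annotated 5′ end of a protein-coding gene (GENCODE vM1, genome build mm9). The B6 list held 394 such peaks among 54236 on autosomes, or 0.726% (Wilson 95% interval 0.658% to 0.801%). The KI list held 529 among 68189, or 0.776% (0.713% to 0.844%). Germ cells, labelled spermatocytes, came from 14 dpp (days post-partum) mice of C57BL/6J (B6) and of B6.Cg-Prdm9<tm1.1Kpgn>/Kpgn (KI), a knock-in on the B6 background whose zinc finger exon of Prdm9 is that of the Cst allele of CAST/EiJ mice. Both strains were untreated and carried a functional Prdm9 gene, the fixed nuclei were digested with MNase before immunoprecipitation, and the label of each input gives 15 dpp. Replicates were merged before the peaks were called, so each strain had 1 list, and the lists hold positions only. No error between replicates and no test between strains could be had, how many reads lie behind a peak is unknown, and the strain and its library cannot be told apart. By the study's methods the merged KI reads outnumbered those of B6. Intervals given with shares below are Wilson 95% intervals over the peaks or starts counted, which are not independent samples.

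H3K36me3 is the trimethylated form of lysine 36 of histone H3. SETD2, which travels with elongating RNA polymerase II, deposits it along the bodies of transcribed genes, while the promoters of active genes carry H3K4me3. In meiotic cells PRDM9, a methyltransferase with a zinc finger array that reads DNA sequence, adds H3K4me3 and H3K36me3 at the sites where recombination starts. A start rich in CpG dinucleotides is typical of housekeeping and other broadly used promoters, and CpG-poor starts are typical of genes used in few tissues. The labelled cell type was checked against broad regions, the wider unrefined calls of the same lists. All 10 germ cell marker genes were covered over at least 50% of their length by broad regions in both strains, with medians of 98.4% in each, against 1 of 7 Sertoli cell markers in B6 and 0 of 7 in KI, 1 of 6 Leydig cell markers, 0 of 3 peritubular and 1 of 4 macrophage markers in each strain. Of the Sertoli markers 1 was at 0% in B6 and 3 were in KI, and the others lay between 3.24% and 71.7% in B6 and up to 8.49% in KI. Their median was 19.6% in B6 and 0.333% in KI. Coverage in B6 and KI was 71.7% and 8.49% at Wt1, 45.2% and 0% at Sox9, and 42.0% and 0.333% at Amh. Fshr went the other way (3.24% and 4.50%), and Inha was at 0% in both. Whether this difference in Sertoli marking bears on other differences between the lists was not tested.

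The sequences shown are those under the largest stretches of refined peak that the strains shared within the window, at starts with no other protein-coding gene there. Each is the 200 bases of shared peak nearest to the 5′ end that hold no exon of a protein-coding gene, read from the mm9 genome on the strand of the gene, with CG dinucleotides in capitals. The Slc3a2 bases are chr19:8797860-8798059 (minus strand, 200 to 1 bp upstream of the 5′ end) with 11 CG, and the Tcfl5 bases are chr2:180377414-180377613 (minus strand, 200 to 1 bp upstream) with 15 CG. The Rps15a bases are chr7:125258423-125258622 (minus strand, in an intron 1078 to 1277 bp downstream) with 3 CG. The Zfp934 bases are chr13:62621230-62621429 (minus strand, in an intron 475 to 674 bp downstream) with 0 CG, and the Srsf1 bases are chr11:87861540-87861739 (plus strand, in an intron 665 to 864 bp downstream) with 20 CG. Their GC content ran from 29.5% at Zfp934 to 70.5% at Srsf1, so that peaks of both strains lay on a CpG-dense promoter at Tcfl5 and on an AT-rich intron at Zfp934.
Slc3a2: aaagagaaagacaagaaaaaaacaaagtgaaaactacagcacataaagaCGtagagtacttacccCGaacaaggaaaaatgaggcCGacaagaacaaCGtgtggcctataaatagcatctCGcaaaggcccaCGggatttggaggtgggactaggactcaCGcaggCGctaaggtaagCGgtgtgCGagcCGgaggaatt
Tcfl5: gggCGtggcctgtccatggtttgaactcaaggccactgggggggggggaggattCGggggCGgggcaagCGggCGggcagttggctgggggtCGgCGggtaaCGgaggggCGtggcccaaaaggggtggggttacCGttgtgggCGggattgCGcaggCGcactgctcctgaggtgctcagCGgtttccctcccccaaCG
Rps15a: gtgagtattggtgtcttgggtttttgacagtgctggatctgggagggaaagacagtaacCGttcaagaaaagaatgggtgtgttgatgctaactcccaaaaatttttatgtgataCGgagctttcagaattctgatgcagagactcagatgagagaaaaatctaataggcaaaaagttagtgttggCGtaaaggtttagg
Zfp934: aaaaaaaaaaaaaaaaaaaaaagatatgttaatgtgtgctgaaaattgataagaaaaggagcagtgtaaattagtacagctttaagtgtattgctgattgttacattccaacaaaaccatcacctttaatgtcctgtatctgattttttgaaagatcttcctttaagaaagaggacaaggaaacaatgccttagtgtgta
Srsf1: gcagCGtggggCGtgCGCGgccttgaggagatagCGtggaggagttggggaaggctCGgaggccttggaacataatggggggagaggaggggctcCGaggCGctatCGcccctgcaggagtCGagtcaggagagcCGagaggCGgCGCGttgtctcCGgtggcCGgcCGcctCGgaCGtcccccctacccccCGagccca

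Few starts held a narrow peak, and the lowest coverage in the surrounding region lay at or within 200 bp of the 5′ end. Of 21418 autosomal starts, 401 held a B6 refined peak, a background of 1.87% (1.70% to 2.06%), and 539 held a KI refined peak, 2.52% (2.32% to 2.74%). A start with peaks of both strains was found 115 times, or 0.537% of all starts. Windows of the same size around the 3′ ends of the same genes held a peak in 13.8% (B6) and 15.0% (KI). Among the 12498 genes longer than 11 kb, 1.25% of starts held a B6 peak and 1.73% a KI peak, against 13.2% and 15.6% of the windows centred 5000 bp downstream. The 5′ base itself lay inside a broad region at 5.92% of starts in B6 and 6.20% in KI.

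**Figure D1:**
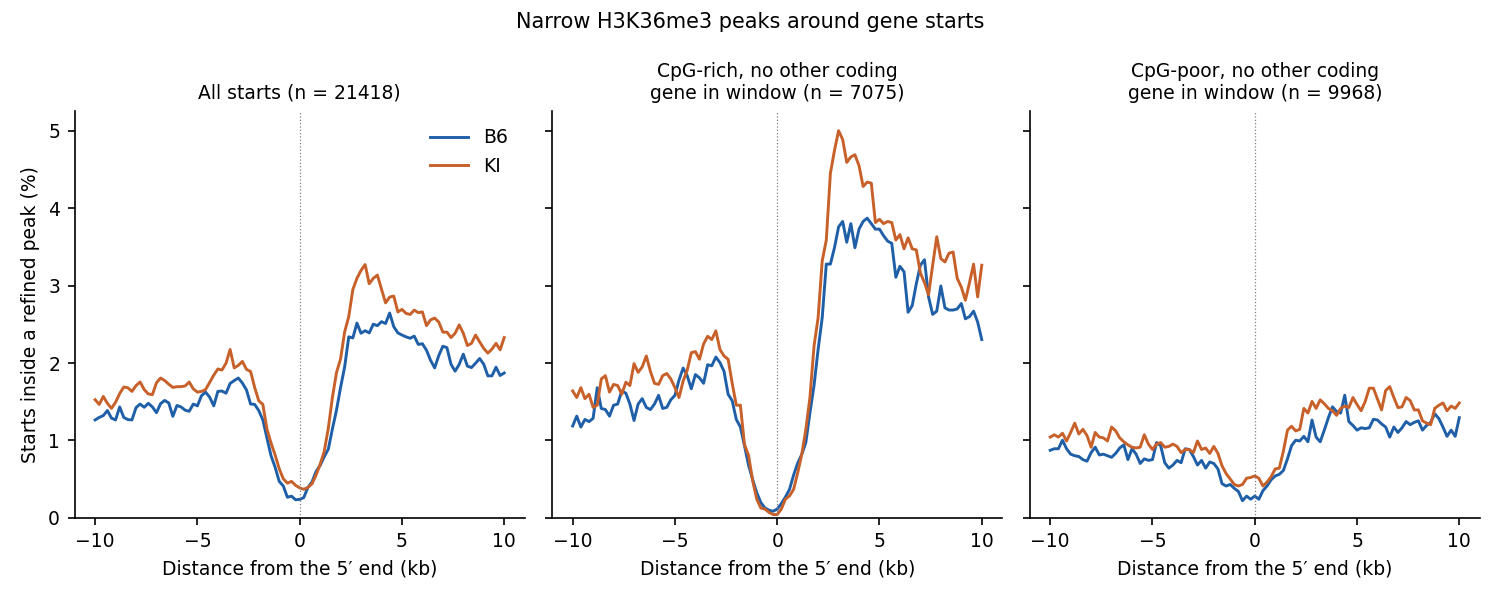
Percentage of gene starts that lay inside a refined peak (y axis) at each distance from the 5′ end in the direction of transcription (x axis, kb, steps of 200 bp), for B6 (blue) and KI (orange), over all starts, CpG-rich starts and CpG-poor starts, the last 2 sets with no other protein-coding gene in the window. Each curve has its lowest point within 800 bp of the 5′ end, and the fall is deepest at CpG-rich starts, to 0.0848% (B6) and 0.0424% (KI) at 200 bp upstream.

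The plot of coverage by distance shows how the narrow peaks were placed. Over all starts the B6 coverage was lowest 200 bp upstream, at 0.233%, and highest 4400 bp downstream, at 2.65%. KI coverage was lowest 200 bp downstream, at 0.369%, and highest 3200 bp downstream, at 3.27%. A start is called CpG-rich here when the bases within 500 bp of it have a GC content of at least 50% and at least 0.6 of the CpG dinucleotides that their C and G content gives, and 45.1% of all starts were. At the 7075 CpG-rich starts with no other protein-coding gene in the window, 6 were inside a B6 peak and 3 inside a KI peak at 200 bp upstream, while 3.87% (B6, 4400 bp downstream) and 5.0% (KI, 3000 bp downstream) were at the highest point. The 9968 CpG-poor starts of the same kind had a shallower profile, from 0.221% (600 bp upstream) to 1.59% in B6 and from 0.411% (800 bp upstream) to 1.70% in KI.

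Within the window most peaks lay beside the 5′ base and not over it. In B6 50 of the 394 start peaks covered the 5′ base of the nearest gene (12.7%, 9.76% to 16.3%), 143 lay wholly upstream (36.3%) and 201 wholly downstream (51.0%). In KI 81 of 529 covered it (15.3%, 12.5% to 18.6%), 226 lay upstream (42.7%) and 222 downstream (42.0%). The downstream share was larger in B6 and its interval (46.1% to 55.9%) met that of KI (37.8% to 46.2%) only at the border. The median peak midpoint was 376 bp downstream in B6 and 60.5 bp upstream in KI. Around the border of the window, 91 B6 peaks had their nearest base 601 to 800 bp from a start, 84 had it 801 to 1000 bp away and 114 had it 1001 to 1200 bp away. In KI these counts were 89, 122 and 140.

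Start peaks were wider than the rest of their lists, most of all at CpG-rich starts. The median width was 472 bp for B6 start peaks (interquartile range 291 to 1346 bp) against 312 bp for other B6 refined peaks, and 381 bp (268 to 746 bp) against 318 bp in KI. The 104 B6 peaks whose nearest start was CpG-rich had a median width of 1907 bp, and the 290 at CpG-poor starts 358 bp. In KI the medians were 1071 bp for 106 peaks and 325 bp for 423 peaks. Of the B6 peaks at CpG-rich starts 81.7% (73.2% to 88.0%) were at least 1000 bp wide, against 11.7% (8.51% to 15.9%) at CpG-poor starts and 4.17% of the B6 peaks away from starts. The KI shares were 54.7% (45.2% to 63.9%), 9.22% (6.82% to 12.4%) and 4.36%. Of the start peaks this wide, 34 of 119 in B6 and 39 of 97 in KI were at CpG-poor starts. Of the peaks at CpG-rich starts 68.3% in B6 and 51.9% in KI ran past the downstream border of the window, 26.9% and 40.6% ran past the upstream border, and 10.6% and 6.60% covered the 5′ base. A wide peak has more chance than a narrow one to touch a window, so the widths are a description of the peaks that the window catches.

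**Figure D2:**
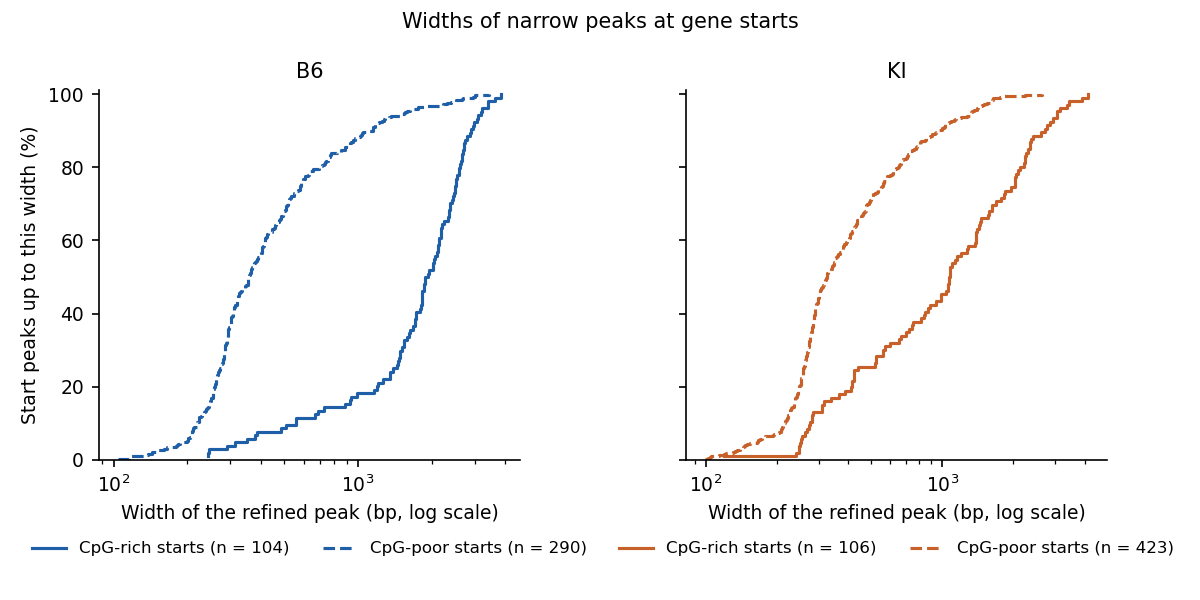
Cumulative percentage of start peaks (y axis) up to each width of the refined peak (x axis, bp, log scale), for peaks whose nearest start was CpG-rich (solid) or CpG-poor (dashed), in B6 (left) and KI (right). The curves of CpG-rich starts lie to the right in both strains, with medians of 1907 bp (B6) and 1071 bp (KI) against 358 and 325 bp at CpG-poor starts.

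Genes with a narrow peak at the start were less often CpG-rich than the others and stood more often beside or inside another gene. Of the B6 start genes 29.4% were CpG-rich (25.2% to 34.1%), of the KI start genes 23.2% (19.8% to 26.9%), and of the 115 genes with both 13.0% (8.07% to 20.4%), against 45.8% of the genes with neither. This difference depended on the window and on the width of the peak. With 2000 bp either side of the 5′ end the CpG-rich shares were 46.5% and 46.6%, and with refined peaks of at least 500 bp they were 53.7% and 43.7%, so under these settings the share in B6 was not below that of all starts. With the midpoint of the peak inside the window they were 7.62% and 6.74%. Another protein-coding gene met the window at 32.9% of B6 start genes (28.5% to 37.7%) and 37.8% of KI start genes (33.9% to 42.0%), against 19.8% of genes with neither. This share also moved with the setting, to 16.2% and 18.8% over transcript starts and 18.5% and 24.1% for the 5′ base alone. The matching shares of genes with neither are not given, so these values cannot be set against 19.8%.

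The share of starts with a peak differed with what the neighbour had in the window. Where another gene ended there, 5.23% of starts had a B6 peak (32 of 612) and 10.1% a KI peak (62 of 612). Where the window lay in the body of another gene the shares were 4.62% and 7.46%. Where another gene also started there they were 1.82% and 2.20%, close to the 1.58% and 1.97% of starts with no other protein-coding gene in the window.

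The share of starts with a peak was also set beside the marking of the gene body. A body is the gene beyond the first 1000 bp, measured in genes over 2000 bp and called marked when at least 50% of it lay in broad regions of the same strain. The broad region around a start peak can reach into the body, of a short gene above all, so this class is in part set by the peak that is counted. Starts of marked bodies held a peak in 2.57% (B6) and 2.89% (KI), and starts of unmarked bodies in 0.882% and 1.79%. Of the 4 combinations of CpG content and marking, CpG-poor starts of marked bodies had the largest share, 5.78% (4.88% to 6.84%) in B6 and 7.20% (6.16% to 8.39%) in KI. At CpG-rich starts of marked bodies it was 1.55% in each strain. At CpG-rich starts of unmarked bodies it was 1 of 2377 in B6 (0.0421%, up to 0.238%) and 12 of 2635 in KI (0.455%, up to 0.794%). Among marked bodies the share went down with gene length, from 7.61% (B6) and 9.20% (KI) in genes up to 5 kb to 1.50% and 1.61% in genes over 20 kb. With bodies marked by the broad regions of the other strain, a choice made after seeing the data, the shares were 2.57% (2.26% to 2.93%) at marked and 0.951% (0.775% to 1.17%) at unmarked bodies in B6, and 2.69% (2.38% to 3.05%) and 1.94% (1.67% to 2.24%) in KI. At CpG-poor starts of bodies marked in this way they were 5.75% in B6 and 6.47% in KI, and in marked genes up to 5 kb 7.63% and 7.61%.

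**Figure D3:**
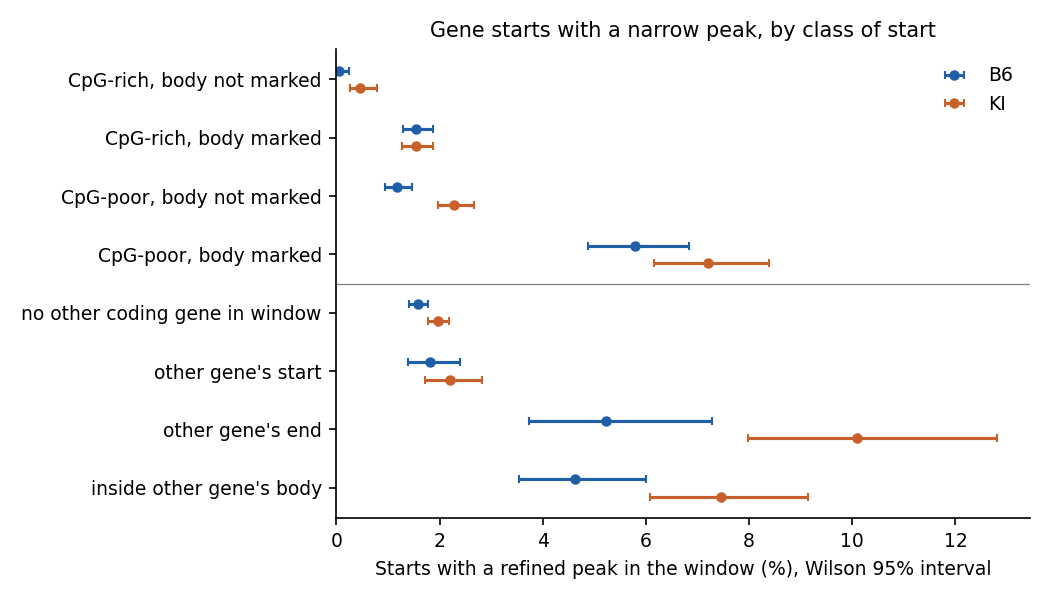
Percentage of gene starts with a refined peak in the window (x axis, with Wilson 95% intervals over starts) for classes of start (y axis), in B6 (blue) and KI (orange). The upper 4 classes combine CpG content with marking of the gene body and the lower 4 give what another protein-coding gene has in the window. CpG-poor starts of marked bodies (5.78% and 7.20%), starts at another gene's end (5.23% and 10.1%) and starts inside another gene's body (4.62% and 7.46%) have larger shares than the other classes.

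Every start peak lay inside a broad region of its own strain, and these regions were at least 2000 bp wide. A start chosen for a refined peak therefore brings a broad region to or near its 5′ base, and marking by the same strain around it is in part fixed by that choice and is given as a description. At least 50% of the stretch from 1000 to 5000 bp upstream lay in broad regions of the same strain at 62.3% of B6 start genes and 51.0% of KI start genes, against 22.4% and 22.6% of all starts. The 5′ base lay in a broad region at 68.1% of B6 and 78.3% of KI start genes. By the broad regions of the other strain, the upstream stretch was marked at 55.9% of B6 start genes (51.0% to 60.6%) and 49.2% of KI start genes (45.0% to 53.4%), and the 5′ base lay in one at 45.6% and 46.4%. Most starts inside a broad region held no refined peak. Of the starts whose 5′ base lay in one, 21.5% held a B6 peak and 31.8% a KI peak, with 9.09% and 14.6% at CpG-rich and 26.1% and 37.4% at CpG-poor starts. Start genes were shorter than others, with median lengths of 6774 bp (B6) and 6719 bp (KI) against 15535 bp for all genes. Symbols that are Gm numbers, Rik names or clone names made up 26.2% and 24.9% of start genes and 34.8% of the genes with both peaks, against 16.1% of all. A TATAAA motif, searched as these letters on the strand of the gene in the 50 bases upstream of the 5′ end, was found at 4.24% of B6 and 2.97% of KI start genes and at 3.13% of all starts, and these differences were within the interval of each share.

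**Figure D4:**
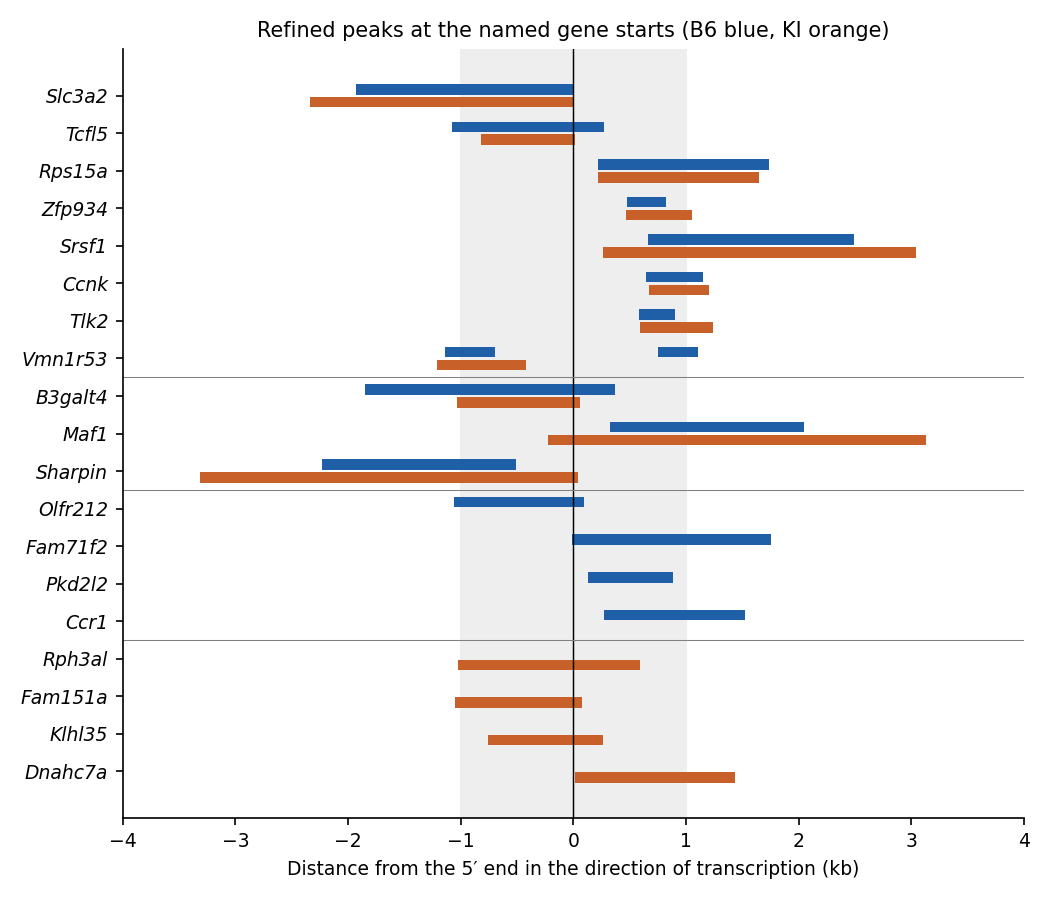
Refined peaks of B6 (blue) and KI (orange) at the named gene starts, drawn by distance from the 5′ end in the direction of transcription (x axis, kb), with the window of 1000 bp either side in grey. From the top, the groups are starts with peaks of both strains and no other protein-coding gene in the window, starts with both beside another protein-coding gene, B6 peaks without a KI region and KI peaks without a B6 region. Edges on the side of the 5′ end coincide closely at Slc3a2, Rps15a and Zfp934.

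Peaks of both strains overlapped each other inside the window at 64 of the 115 starts that had both. Among starts with no other protein-coding gene in the window, the largest shared stretch lay at Slc3a2, which encodes the heavy chain of amino acid transporters at the cell surface: the B6 peak (chr19:8797854-8799792) ran from 1933 bp upstream to 5 bp downstream of the 5′ end and the KI peak (chr19:8797848-8800200) from 2341 bp upstream to 11 bp downstream, with 1006 shared bases in the window. Both lay over Snhg1, a non-coding host gene of small nucleolar RNAs on the opposite strand, and so covered the transcribed part of the neighbour and stopped at the start of Slc3a2. At Tcfl5, a transcription factor gene active in male germ cells, the B6 peak (chr2:180377136-180378486) ran from 1073 bp upstream to 277 bp downstream and the KI peak (chr2:180377399-180378236) from 823 bp upstream to 14 bp downstream, with 838 shared bases. No annotated gene other than Tcfl5 lay under them.

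At Rps15a, Srsf1, Zfp934, Ccnk and Tlk2 the peaks lay downstream, in the gene. At Rps15a, which encodes a protein of the small ribosomal subunit, the peaks began 221 bp (B6) and 220 bp (KI) from the 5′ end and were 1517 and 1431 bp wide (chr7:125257963-125259479 and chr7:125258050-125259480). At Srsf1, a splicing factor gene, they began 665 and 267 bp downstream and were 1828 and 2774 bp wide (chr11:87861540-87863367 and chr11:87861142-87863915). The body of each of these genes was marked over 100% of its length in both strains. Zfp934, a zinc finger gene with a CpG-poor start, had peaks of 346 and 585 bp that began 475 and 469 bp downstream, away from its exons (chr13:62621084-62621429 and chr13:62620851-62621435). Ccnk, which encodes cyclin K, had peaks of 513 and 528 bp that began 642 and 675 bp downstream (chr12:109425222-109425734 and chr12:109425255-109425782). Tlk2, a kinase gene of chromatin assembly, had peaks of 322 and 655 bp that began 585 and 589 bp downstream (chr11:105040706-105041027 and chr11:105040710-105041364), and only 1 of its 8 protein-coding transcripts starts in this window. At the single-exon receptor gene Vmn1r53 the shared peak lay upstream, from 1139 to 696 bp in B6 and from 1212 to 420 bp in KI, in broad regions of 2000 and 4500 bp, with a second B6 peak from 748 to 1105 bp downstream.

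Beside other protein-coding genes, the largest shared stretch lay at B3galt4, a galactosyltransferase gene. The B6 peak (chr17:34088065-34090286) ran from 1853 bp upstream to 368 bp downstream and the KI peak (chr17:34088375-34089466) from 1033 bp upstream to 58 bp downstream, over the end of Rps18, a ribosomal protein gene on the same strand. Maf1, a repressor of RNA polymerase III, and Sharpin, a subunit of a ubiquitin ligase complex, start within the window of each other and share their peaks. These lay from 322 to 2050 bp downstream of the Maf1 start in B6 and from 222 bp upstream to 3135 bp downstream in KI (chr15:76182046-76183774 and chr15:76181502-76184859), over the body of Maf1.

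Some starts had a peak of 1 strain and no region of the other, broad or narrow, in the window. This held for 100 of the 401 B6 start genes (24.9%) and 189 of the 539 KI start genes (35.1%). The B6 peaks with the most bases in the window among clear, named genes were at Olfr212 (chr6:116455476-116456628, an olfactory receptor gene, from 1058 bp upstream to 94 bp downstream), Fam71f2 (chr6:29229586-29231352, from 7 bp upstream to 1759 bp downstream), Pkd2l2 (chr18:34569209-34569959, of the polycystin channel family, 132 to 882 bp downstream) and Ccr1 (chr9:123882002-123883253, a chemokine receptor gene, 272 to 1523 bp downstream). The KI peaks were at Rph3al (chr11:75751341-75752953, a gene of regulated exocytosis, from 1022 bp upstream to 590 bp downstream), Fam151a (chr4:106405441-106406569, from 1053 bp upstream to 75 bp downstream), Klhl35 (chr7:106613757-106614782, a kelch-like gene, from 757 bp upstream to 268 bp downstream) and Dnahc7a (chr1:53621104-53622526, an axonemal dynein heavy chain gene, 15 to 1437 bp downstream). Of these 8 starts none was CpG-rich, the broad regions were 2000 to 3500 bp wide, and the peaks at Olfr212, Fam71f2, Rph3al, Fam151a and Klhl35 covered the 5′ base. The Pkd2l2 start missed the CpG-rich class by its GC content of 49.5% alone, with 0.76 of the expected CpG dinucleotides. The body of Pkd2l2 was marked over 92.3% of its length in B6 and 78.6% in KI, while that of Rph3al was marked over 1.88% in each.

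The sharing between strains was therefore compared for all start peaks and for the rest of each list. In B6 132 of the 394 start peaks overlapped a KI refined peak (33.5%, 29.0% to 38.3%), against 17.6% of the other B6 refined peaks, and 29.7% met no KI region against 43.4%. In KI 89 of the 529 overlapped a B6 refined peak (16.8%, 13.9% to 20.2%), against 14.1% of the others, and 39.3% met no B6 region against 32.0%. The KI share of overlap thus included the level of the rest of its list in its interval, while the B6 share did not. With the midpoint of the peak in the window the B6 share was 21.7%, and with peaks of at least 500 bp in both lists the shares were 18.1% and 10.9%. The limit of 500 bp takes narrow peaks out of both lists, and the share of the other peaks under it is not given. The 18.1% and 10.9% therefore cannot be set against 17.6% and 14.1%, which are for peaks of all widths. A B6 start that held a peak had a KI peak in its window in 28.7% of cases, against 2.02% of starts without a B6 peak, and a KI start had a B6 peak in 21.3%, against 1.37%.

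CpG content and width moved with the sharing. At CpG-rich starts 62.5% (52.9% to 71.2%) of B6 peaks shared bases with a KI refined peak and 10.6% had no KI region, and at CpG-poor starts these shares were 23.1% (18.6% to 28.3%) and 36.6%. In KI 33.0% (24.8% to 42.4%) and 17.9% were found at CpG-rich and 12.8% (9.92% to 16.3%) and 44.7% at CpG-poor starts. The B6 start peaks that overlapped a KI refined peak had a median width of 1358 bp, those that met only a broad region 392 bp and those that met no region 346 bp. The KI medians were 670, 382 and 308 bp. Counted by gene and within the window, only 15 of the 118 CpG-rich B6 start genes had a KI refined peak, and 78.0% had a KI broad region alone. The KI peak that a wide B6 peak overlapped thus often lay farther from the 5′ end than the window reaches. The part of width in the sharing was not tested.

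Gene families differed in how often their starts held a peak, as the plot of lists shows. Of 129 cytosolic ribosomal protein genes 10 had a B6 peak (7.75%, 4.26% to 13.7%) and 12 a KI peak (9.30%, 5.40% to 15.6%), above the 1.87% and 2.52% of all starts. Leaving out the 53 symbols that hold -ps, which name copies, 9 of 76 (11.8%) and 8 of 76 (10.5%) had one. The median length was 1977 bp over the 129 genes, 483 bp for the -ps copies and 3238 bp for the 76 others. Bodies were measured only in genes over 2000 bp, which leaves out the -ps copies, and their median coverage by broad regions was 100%. Over all families, marked genes up to 5 kb had start peaks in 7.61% and 9.20%. The part of length and marking in the share of the ribosomal protein genes was not tested. Peaks of both strains stood at Rps15a and Rps2. At Rps2 the B6 peak was 586 bp and the KI peak 145 bp wide, 178 and 284 bp downstream of the 5′ end, over no exon of Rps2. This start was CpG-poor, only 1 of the 4 protein-coding transcripts of Rps2 starts in the window, and Rnf151 also starts there. Among 77 genes for mitochondrial ribosomal proteins, 6 had a B6 peak (7.79%, 3.62% to 16.0%) and 3 a KI peak (3.90%, 1.33% to 10.8%), and both strains had one at Mrpl17 and Mrps18b.

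Zinc finger genes with Zfp symbols, many of which encode DNA-binding repressors, had a B6 peak at 12 of 362 starts (3.31%, 1.91% to 5.70%, against 1.87% of all starts) and a KI peak at 20 (5.52%, 3.60% to 8.38%, against 2.52%). Peaks of both strains stood at 0.537% of all starts and at 8 of the 362 Zfp starts: Zfp934, Zfp939, Zfp319, Zfp125, Zfp72, Zfp647, Zfp518a and Zfp950. At Zfp950 they nearly coincided, from 1177 to 772 bp upstream in B6 and from 1154 to 775 bp upstream in KI. At Zfp939 they did not overlap, since the B6 peak ended 343 bp upstream and the KI peak ran from 119 bp upstream to 111 bp downstream. The Zfp319 start belongs to a record of 2250 bp whose window also meets Tepp and another Zfp319 record. Its KI peak, 1311 to 959 bp upstream, reached only 42 bases into the window and did not overlap the B6 peak. None of these 8 starts was CpG-rich, against 49.7% of the family and 13.0% (15 of 115) of all starts with peaks of both strains. Genes with Gm symbols, which are predicted genes, had a B6 peak at 66 of 1858 starts (3.55%, 2.80% to 4.49%, against 1.87% of all starts). A KI peak stood at 73 (3.93%, 3.14% to 4.91%, against 2.52%). Both strains had one at 30 of the 1858 Gm starts and at 115 of all 21418 starts.

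Start peaks were less frequent at olfactory receptor genes, which are silent in most tissues, than at all starts. Of 1106 olfactory receptor genes 8 had a B6 peak (0.723%, 0.367% to 1.42%, against 1.87% of all starts) and 15 a KI peak (1.36%, 0.824% to 2.23%, against 2.52%). Both strains had one at Olfr544 only, where the peaks did not overlap. Bodies were measured only in genes over 2000 bp, and the median length of the olfactory receptor genes was 960 bp, so most of them had no measured body. Those that were measured had a median of 0% in broad regions. Starts of unmarked bodies of all genes held a peak in 0.882% (B6) and 1.79% (KI), values inside the olfactory receptor intervals. These values leave out genes of up to 2000 bp, so they are no matched background for the family. Of 324 vomeronasal receptor genes 8 had a B6 peak (2.47%, 1.26% to 4.80%) and 4 a KI peak (1.23%, 0.481% to 3.13%), intervals that hold the shares of all starts, with both at Vmn1r53 and Vmn2r11. The Vmn2r11 peaks overlapped by 157 bases and covered the 5′ base in both strains. No start of the 67 replication-dependent histone, 40 Hox or 34 protocadherin genes had a peak in either strain, which for counting of genes alone allows shares of up to 5.42%, 8.76% and 10.2%. Of 97 keratin and keratin-associated protein genes 0 had a B6 peak (up to 3.81%) and 1 a KI peak (1.03%, 0.182% to 5.61%). Of 53 defensin genes 1 had a peak in each strain (1.89%, 0.334% to 9.94%), Defb47 in B6 and Defb38 in KI. Of 211 Tmem genes 1 had a peak in each strain (0.474%, 0.0837% to 2.64%). Of 343 solute carriers 3 had a B6 peak (0.875%, 0.298% to 2.54%) and 8 a KI peak (2.33%, 1.19% to 4.53%), with both at Slc3a2 and Slc39a5. The intervals of the keratin, defensin, Tmem and solute carrier genes all hold the shares of all starts, 1.87% in B6 and 2.52% in KI.

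Among 33 genes of meiotic recombination and synapsis 2 had a B6 peak (6.06%, 1.68% to 19.6%, against 1.87% of all starts) and 0 a KI peak (up to 10.4%, against 2.52%). At Psmc3ip, whose product assists strand exchange, the B6 peak ran from 250 to 3239 bp downstream in a gene of 3614 bp and met Mlx. Its window held a KI broad region. Of 22 genes of spermatogonia and meiotic entry none had a start peak in either strain, which allows a share of up to 14.9%.

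The list of postmeiotic spermatid genes had a B6 peak at 2 of 22 starts (9.09%, 2.53% to 27.8%) and a KI peak at 5 (22.7%, 10.1% to 43.4%), against 1.87% and 2.52% of all starts. A 14 dpp testis largely lacks spermatids, but whether genes of this list were already in use in the cells sampled was not measured. The 5 starts include Prm2 and Prm3, which share 1 KI peak. All were CpG-poor. Acrv1, an acrosomal protein gene, had a B6 peak 328 to 590 bp downstream and a KI peak 645 to 208 bp upstream. The body of Acrv1 was marked over 100% of its length in B6 and 4.22% in KI. The protamine genes, whose products replace histones in sperm, lie side by side on chromosome 16. A single KI peak of 382 bp lay 237 to 618 bp downstream of the Prm2 start and 955 to 574 bp upstream of the Prm3 start, in windows without a B6 region. A B6 peak lay 1489 to 904 bp upstream of Prm1, whose window held no KI region, while 62.5% of the stretch from 1000 to 5000 bp upstream lay in KI broad regions. KI peaks stood also at Ldhc, a testis lactate dehydrogenase gene (885 to 1733 bp downstream), and Tssk2, a testis kinase gene (559 bp upstream to 20 bp downstream).

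Of 26 genes for enzymes that add or remove methyl groups at lysine 4 or 36 of histone H3, 1 had a start peak. The share was 0 in B6 (up to 12.9%, against 1.87% of all starts) and 3.85% in KI (0.682% to 18.9%, against 2.52%). This was Setd2 in KI, with a peak of 2270 bp from 2870 to 601 bp upstream of its CpG-rich start, over no annotated gene. Among 20 housekeeping genes Chmp2a had a B6 peak, 1284 to 776 bp upstream where Ube2m ends, and B2m a KI peak, 1214 to 961 bp upstream inside Patl2.

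**Figure D5:**
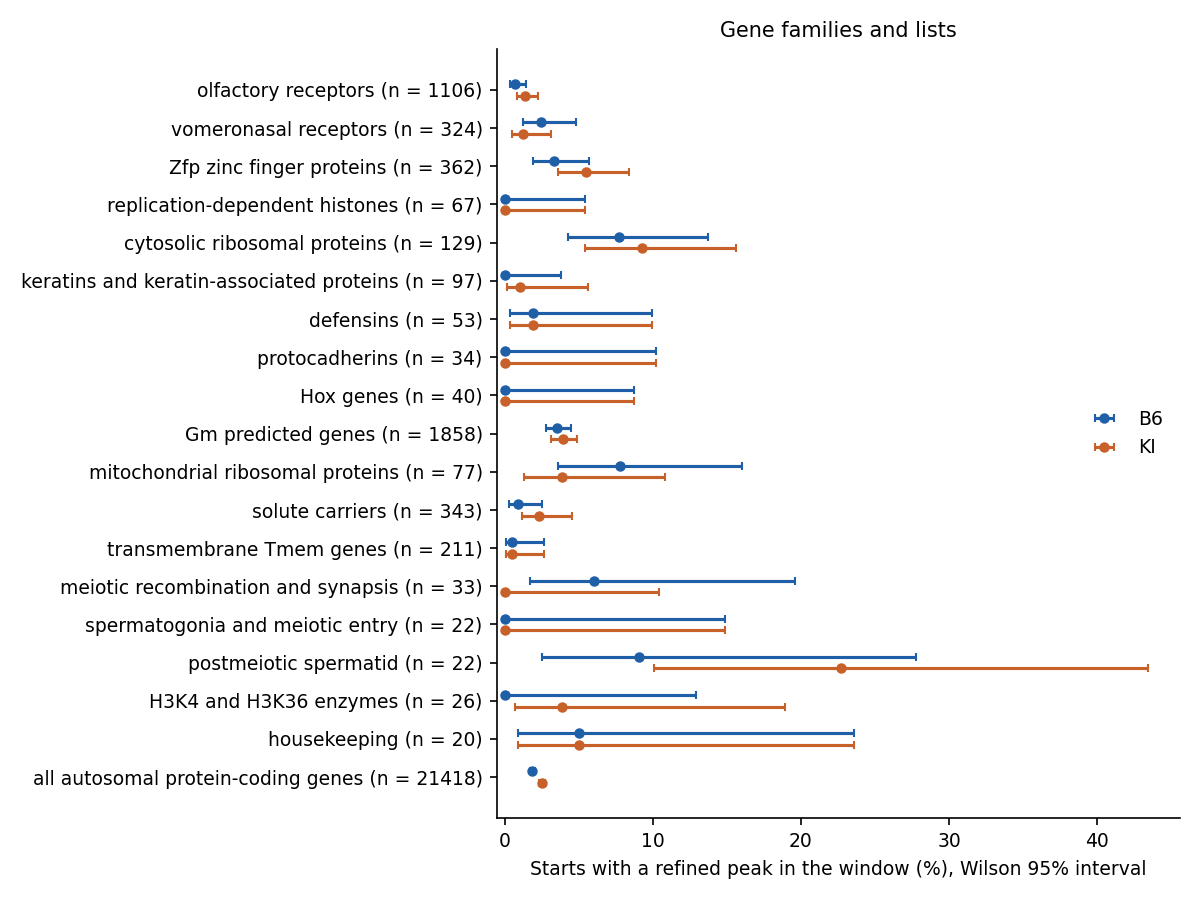
Percentage of starts with a refined peak in the window (x axis, with Wilson 95% intervals over genes) for gene families and lists (y axis, n genes on autosomes), in B6 (blue) and KI (orange), with all autosomal protein-coding genes in the last line (1.87% and 2.52%). Cytosolic ribosomal protein genes lie above all genes in both strains, and histone, protocadherin and Hox genes are at 0.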

How the data were processed

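H3K36me3 ChIP-seq of germ cells was compared between strains B6 and KI, with 1 merged library and 1 input per strain. Per the labels and the study's methods, reads were aligned to mm9 with BWA v1.2.3, reads without a unique position were discarded, the replicates of each strain were combined, and ZINBA called broad (unrefined) and narrow (refined) regions against the input. The FDR option of ZINBA was off. The antibody is H3K36me3 in the titles and is written H3K36me6 in another label. Each deposited list holds chromosome, start and end only, so no other peak threshold could be set, and the reads behind each peak and the spread between replicates are not in them. The separate replicates were not used here.

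Positions were read as 1-based with both ends included, and repeated broad regions were used once. Gene starts were the 5′ ends of protein-coding gene records of GENCODE vM1, on the same build. A peak belonged to a start when any base lay within 1000 bp of it. GC and CpG content were computed from the 1001 bases around it. Shares carry Wilson 95% intervals (scipy 1.17.1), which cover the number of features only. No group test was possible, so no p-value is given. The interval code was tested on simulated data with known overlaps. Genes are named by shared or strain-private bases in the window, or as members of the gene lists. Unnamed symbols (Gm, Rik, clones) were counted and not named, and results at some genes are not reported here. The peaks, gene lists and rules were chosen with earlier results of these data known. Sequences come from the mm9 genome, without exons of protein-coding genes. Alternatives changed the window, the chromosomes, the overlap, the peak width, the genes used, the start set and the CpG limits.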

Additional observations from a re-analysis of the deposited data

How the results depend on the processing

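Of 82 recomputed values, 29 stayed inside the interval of the reported value, or within 1.5 times the reported number of genes, and 53 moved out of it. The cause was not tested beyond what each setting changes by its construction (the window, the peaks or the genes counted). Using all chromosomes moved none of the 9 results. In 10 further values, added after seeing the data, gene bodies were called marked by the broad regions of the other strain, and all 10 stayed inside the interval of the reported value.

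The share of starts with a peak (reported as 1.87% in B6 and 2.52% in KI) was 0.924% and 1.29% with 500 bp either side of the 5′ end, 5.93% and 8.18% with 2000 bp, 1.04% and 1.66% by midpoints, 0.957% and 1.04% with peaks of at least 500 bp, 1.65% and 2.25% without Gm, Rik and clone symbols, 1.44% and 1.95% in genes of at least 5 kb, and 4.89% and 6.32% over the 5′ ends of all protein-coding transcripts. KI stayed above B6 in each. The number of genes with both (115) was 44, 544, 17, 75, 61 and 425 under these settings, the midpoint setting apart.

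The share of B6 start peaks that overlapped a KI refined peak (33.5%) was 21.7% by midpoints, 18.1% with peaks of at least 500 bp, 27.2% over transcript starts, 27.9% when 50% of the shorter peak had to overlap, 46.7% when peaks within 500 bp counted, and 70.3% with broad regions counted. The KI share (16.8%) was 21.2% with 2000 bp, 10.9% with peaks of at least 500 bp, and 13.8%, 27.4% and 60.7% under the last 3 of those settings.

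The share of start genes whose window met another gene (32.9% and 37.8%) was 43.5% and 42.2% with 2000 bp, 16.2% and 18.8% over transcript starts, and 18.5% and 24.1% for the 5′ base alone. In KI it was also 30.0% with 500 bp, 45.5% with peaks of at least 500 bp and 32.7% in genes of at least 5 kb. The matching shares of all starts under these settings are not given. The CpG-rich share (29.4% and 23.2%) was 46.5% and 46.6% with 2000 bp, 7.62% and 6.74% by midpoints, 53.7% and 43.7% with peaks of at least 500 bp, 35.5% and 27.4% without Gm, Rik and clone symbols, 13.5% and 12.2% over transcript starts, and 20.0% and 13.4% with the stricter CpG limits. In KI it was 15.2% with 500 bp.

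No paired analysis was possible because each strain has 1 merged list, and leaving out a replicate needs lists of single replicates, which were not used here. The reads behind each peak are not in the lists, and the lists say nothing of the level of the mark at starts without a peak.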
